A study of Mus musculus with 220 samples.

Results

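The genes described here are 5 surface proteins of the immunoglobulin superfamily that endothelial cells present to passing lymphocytes: Icam1, Icam2, Vcam1, Madcam1 and Pecam1. They were chosen by name, as the integrin ligands of lymphocyte entry together with Pecam1, and not by their values. All 5 were found by symbol among the 24049 genes of the table. The measurements come from single-cell RNA sequencing of endothelium sorted from lymph nodes of C57BL/6 mice, in which every cell was handled with the Fluidigm C1 system and given its own library. The values are FPKM, in which the fragments of a gene are divided by its transcript length and by the cell's mapped fragments, so levels of different genes can be set side by side per length.

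Inflamed high endothelial cells (HEC) came from mice with 4% oxazolone, a skin sensitiser, put on the skin and were harvested on day 3 (65 cells). Dedifferentiated HEC were harvested on day 7 after a single intraperitoneal dose of LTBR-Ig, a soluble lymphotoxin beta receptor that binds the receptor's ligands (44 cells). Homeostatic HEC (79 cells) and blood endothelial cells (BEC, 32 cells) came from untreated mice. The labels name no animal, pool, chip or sort gate, so each group is 1 sample, and treatment, day and capture cannot be told apart. Cells are therefore described by their spread, with no p-value and no standard error, and a gene is called higher or lower only where the group means of log2(FPKM + 1) differ by 1 or more. This scale understates differences of low genes.

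Lymphocytes that roll on the wall of a high endothelial venule are brought to arrest by activated integrins, which bind immunoglobulin-family proteins on the endothelial surface. ICAM-1 and ICAM-2 are ligands of the integrin LFA-1, VCAM-1 is the ligand of VLA-4, and MAdCAM-1, best known from mucosal nodes and Peyer's patches, is bound by the integrin alpha4beta7. PECAM-1 (CD31) binds itself at the junctions between endothelial cells and is used as a general marker of endothelium. Cytokines that act through NF-kappaB are known to raise Icam1, Vcam1 and Madcam1 in endothelial cells, while Icam2 and Pecam1 are known as largely constitutive.

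Of these genes, Icam1 and Madcam1 had a promoter entry in the RefSeq table (GRCm38.p6), and both are shown because NF-kappaB is known to act on them. Each stretch runs from 250 bases before to 50 bases after the RefSeq start. The Icam1 stretch is chr9:21015690-21015989 and the Madcam1 stretch is chr10:79664309-79664608, both on the plus strand. Capitals mark matches to the letters GGAAANTCC or GGAAANCCC, forms of the kappaB motif that cannot match at the same place, which were searched on both strands.
Icam1: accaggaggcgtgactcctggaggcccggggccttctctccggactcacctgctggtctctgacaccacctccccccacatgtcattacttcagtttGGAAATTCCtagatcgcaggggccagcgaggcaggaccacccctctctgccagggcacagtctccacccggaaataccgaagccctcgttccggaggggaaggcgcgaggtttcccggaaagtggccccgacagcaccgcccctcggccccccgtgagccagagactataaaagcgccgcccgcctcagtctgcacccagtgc
Madcam1: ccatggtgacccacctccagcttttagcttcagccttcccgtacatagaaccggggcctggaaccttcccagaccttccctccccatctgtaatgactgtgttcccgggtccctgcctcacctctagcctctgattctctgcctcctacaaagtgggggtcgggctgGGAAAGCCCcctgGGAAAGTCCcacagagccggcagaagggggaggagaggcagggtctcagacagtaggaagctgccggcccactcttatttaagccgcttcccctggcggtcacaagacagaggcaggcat
The Icam1 stretch held 1 match, GGAAATTCC, from 153 to 145 bases before the start. The Madcam1 stretch held 2 matches that do not overlap, GGAAAGCCC from 83 to 75 and GGAAAGTCC from 70 to 62 bases before the start. Among 32851 promoter entries of the same length, 1.25% held GGAAANTCC and 1.68% held GGAAANCCC. Both genes are shown as known targets of NF-kappaB, so these shares do not measure how unusual the matches are. Other forms of the kappaB motif were not searched. A match is a description of the letters only. The 5 genes lie, in GRCm38 with GENCODE M21, on chromosome 9 (Icam1, 21015985 to 21028817), chromosome 11 (Icam2, 106377656 to 106388075, and Pecam1, 106654217 to 106750628), chromosome 3 (Vcam1, 116109949 to 116129688) and chromosome 10 (Madcam1, 79664559 to 79668537).

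Before the results, the libraries were compared with one another. Inflamed cells 43 and 60 were almost the same (Pearson r of 0.988 between their log2 values, where the next closest pair in the series reached 0.701), were averaged and were counted once, which left 64 inflamed HEC and 219 cells. The median number of genes at an FPKM of 1 or more was 3961 in inflamed, 3075 in dedifferentiated and 3842 in homeostatic HEC, against 2870.5 in BEC. Depth, approximated from the steps of low values, had a median of 2148887 fragments over all cells. At that depth 1 fragment was worth an FPKM of 0.191 for Icam1, 0.394 for Icam2, 0.138 for Vcam1, 0.348 for Madcam1 and 0.139 for Pecam1, so an FPKM of 1 stands for a few fragments. A fixed list of high endothelial markers summed to medians of 28192, 80610 and 141394 FPKM in inflamed, dedifferentiated and homeostatic HEC, against 444.3 in BEC, while blood endothelial markers summed to 1146, 378.1 and 341.4 FPKM in the 3 HEC groups and 9915 in BEC. The labels and the markers therefore go the same way.

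**Figure D1:**
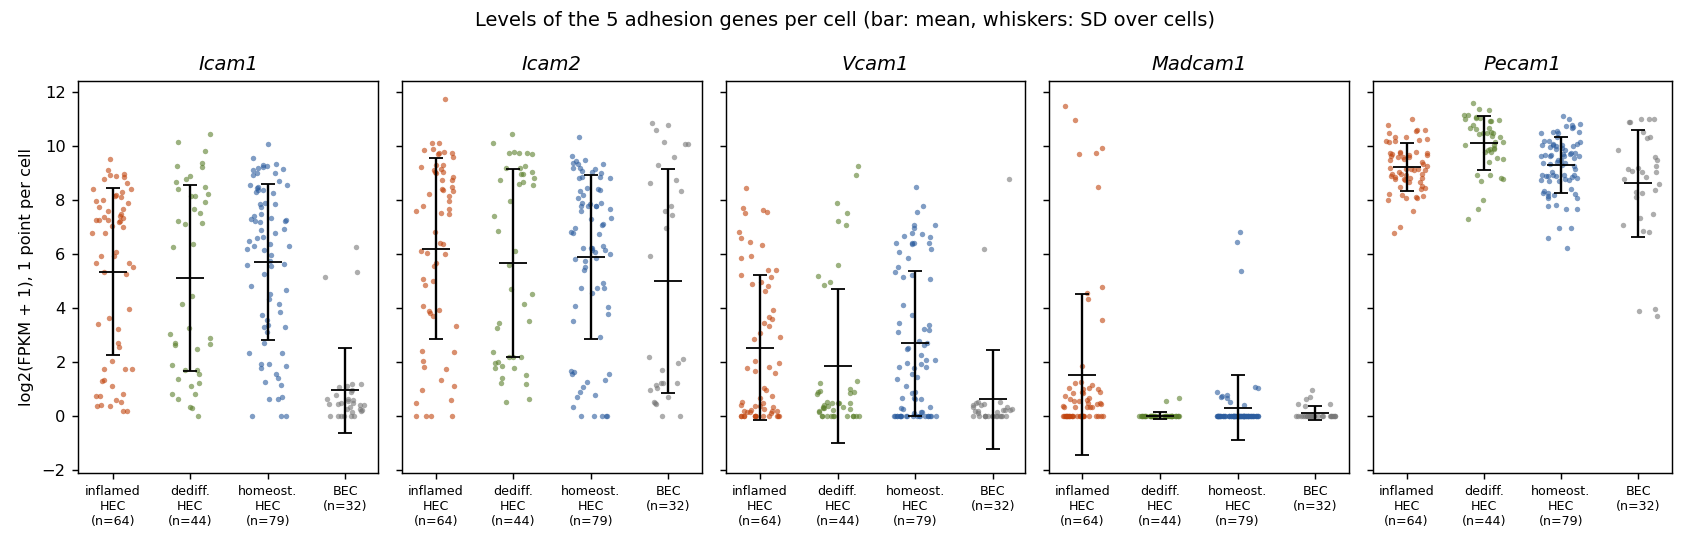
Levels of the 5 genes in single cells, as log2(FPKM + 1), with 1 point for each cell, a bar for the mean and whiskers for the SD over cells. Pecam1 lay in a narrow band in the 3 HEC groups, Icam1 and Icam2 ran from near 0 to high levels, and Madcam1 was near 0 in most cells apart from a few inflamed HEC.

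ICAM-1, the ligand of LFA-1 that inflammatory cytokines raise, marked the difference between HEC and BEC most clearly. Icam1 ran from 0.14 to 725.2 FPKM in inflamed HEC with a median of 107.9, and from 0 to 1391 FPKM in dedifferentiated HEC with a median of 48.3. It ran from 0 to 1074 FPKM in homeostatic HEC with a median of 81.5. In BEC it ran from 0 to 74.9 FPKM with a median of 0.39. The 3 HEC groups covered much the same range, and BEC lay low but overlapped with each of them. The mean log2(FPKM + 1) was 5.71 ± 2.89 in homeostatic HEC (SD, n = 79 cells) and 0.96 ± 1.56 in BEC (SD, n = 32 cells), a difference of 4.75 on the log2 scale. Of the 9248 genes past the filter on low values, 17% were higher in homeostatic HEC by 1 or more, and 99.6% had a smaller difference than Icam1. Mean FPKM was 36 times as high in homeostatic HEC. In 25 pairs of homeostatic HEC and BEC with similar numbers of genes, the difference was 3.53.

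An FPKM of 1 or more for Icam1 was found in 54 of 64 inflamed, 38 of 44 dedifferentiated and 73 of 79 homeostatic HEC, which is 84.4%, 86.4% and 92.4%, and in 7 of 32 BEC, which is 21.9% (exact Clopper-Pearson 95% interval 9.28% to 39.97%). An FPKM of 100 or more was found in 36 of 79 homeostatic HEC and in none of the 32 BEC. A further 19 BEC had Icam1 above 0 and below 1, a level of a few fragments. Most BEC were thus listed with a trace of Icam1. The high endothelial markers Glycam1 and Ccl21a were likewise listed in all 32 BEC, with medians of 66.2 and 60.1 FPKM. Their medians in homeostatic HEC were 59091 and 57488 FPKM. Whether such low values came from the BEC themselves was not tested. At 10 FPKM or more, Icam1 was found in 3 of 32 BEC. These 3 cells make up most of the BEC mean, which was 5.04 FPKM with all cells and 2.78 FPKM without cell 2.

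Icam1 in the treated HEC lay close to the level of untreated HEC. Inflamed HEC averaged 5.35 ± 3.09 (SD, n = 64) on the log2 scale and homeostatic HEC 5.71 ± 2.89 (SD, n = 79), a difference of -0.36, far inside the SD of either group. Dedifferentiated HEC averaged 5.11 ± 3.45 (SD, n = 44), a difference of -0.60 from homeostatic HEC. That sign depended on the scaling. The dedifferentiated minus homeostatic difference was 0.27 after scaling by median ratios, 0.25 as the log2 ratio of mean FPKM and -0.01 in 36 pairs matched on the number of genes. The shape differed more than the mean: 14 of 44 dedifferentiated HEC had 1 to 10 FPKM and 4 had 10 to 100, against 15 and 22 of 79 homeostatic HEC. At the upper end the shares were close, since 20 of 44 dedifferentiated and 36 of 79 homeostatic HEC, 45.5% and 45.6%, had 100 FPKM or more.

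ICAM-2, the second ligand of LFA-1, was present in all 4 groups and separated them little. Icam2 ran from 0 to 3419 FPKM in inflamed HEC with a median of 179.5, and from 0.46 to 1393 FPKM in dedifferentiated HEC with a median of 58.3. It ran from 0 to 1288 FPKM in homeostatic HEC with a median of 104.9. In BEC it ran from 0 to 1838 FPKM with a median of 32.1. All ranges overlapped, and the highest BEC lay above the highest homeostatic HEC.

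The groups differed in the spread of Icam2. Between 10 and 100 FPKM lay 15 of 64 inflamed, 6 of 44 dedifferentiated and 22 of 79 homeostatic HEC, and 1 of 32 BEC. The BEC thus fell into low and high cells, 16 with less than 10 FPKM and 15 with 100 FPKM or more. Of the genes of like mean, 1.46% in inflamed, 9.14% in dedifferentiated and 16.5% in homeostatic HEC had a larger SD than Icam2. In BEC the SD of 4.15 on the log2 scale was larger than that of every one of the 240 genes of like mean. With such a split the direction depends on the average used: the log2 mean was 5.89 ± 3.04 (SD, n = 79) in homeostatic HEC and 4.996 ± 4.152 (SD, n = 32) in BEC, a difference of 0.89, whereas mean FPKM was 208.6 in homeostatic HEC and 367.3 in BEC, a ratio of 0.568. Leaving out BEC 20 brought the difference to 1.08, past the limit for a call, and pairing on the number of genes brought it to 1.34.

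Between HEC groups Icam2 differed by less than its spread. Inflamed HEC averaged 6.20 ± 3.33 (SD, n = 64), a difference of 0.31 from homeostatic HEC on the log2 scale, with mean FPKM 1.60 times as high. Dedifferentiated HEC averaged 5.67 ± 3.46 (SD, n = 44), a difference of -0.22. The sign of that small difference turned with the scaling, since it was 0.76 after scaling by median ratios and 0.49 as the log2 ratio of mean FPKM. Dedifferentiated HEC had Icam2 at 1 FPKM or more in 42 of 44 cells, against 70 of 79 homeostatic HEC, and at 10 FPKM or more in 27 of 44 dedifferentiated against 62 of 79 homeostatic HEC, so the order of the shares turned with the limit.

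**Figure D2:**
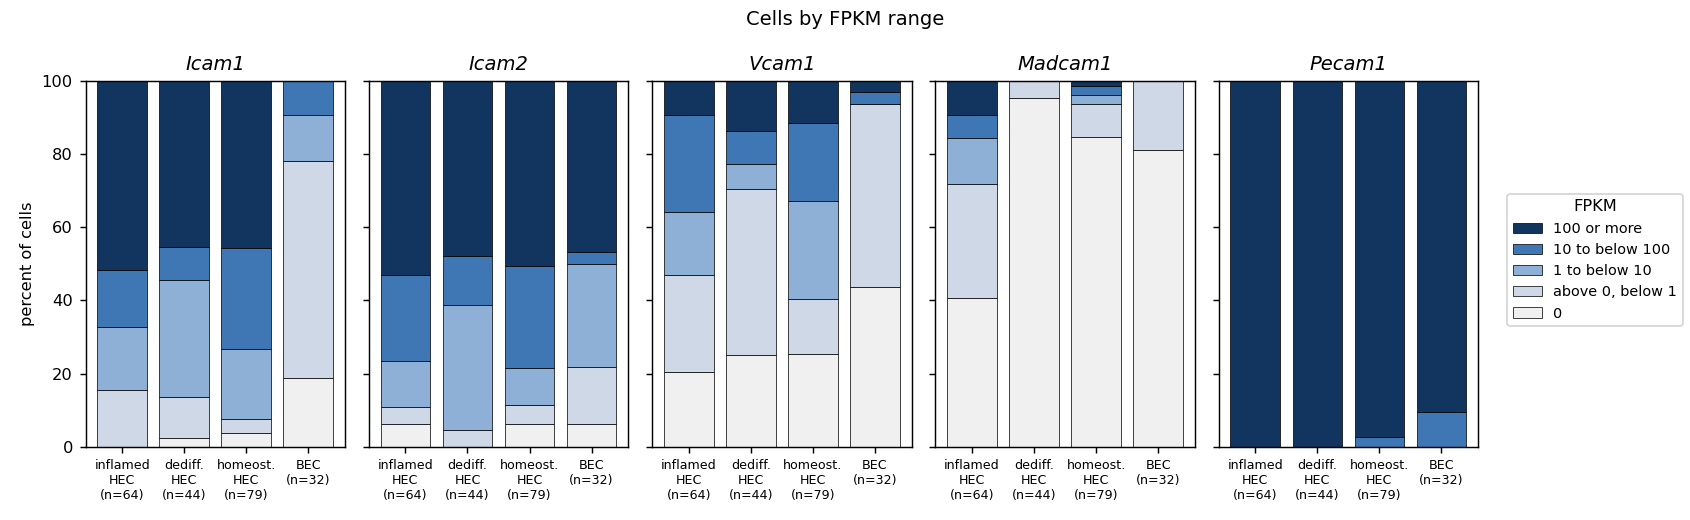
Share of cells, in percent, in each of 5 ranges of FPKM (shades, from 0 at the bottom to 100 or more at the top) for each gene and group. Icam2 in BEC is split, with 16 cells under 10 and 15 cells at 100 or more of 32, and Madcam1 at 100 or more is seen in 6 of 64 inflamed and 1 of 79 homeostatic HEC.

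VCAM-1, the ligand of VLA-4, was the sparsest of the integrin ligands that all HEC groups shared. Vcam1 ran from 0 to 347.3 FPKM in inflamed HEC with a median of 2.12, and from 0 to 618.1 FPKM in dedifferentiated HEC with a median of 0.395. It ran from 0 to 352.1 FPKM in homeostatic HEC with a median of 2.82. In BEC it ran from 0 to 433.2 FPKM with a median of 0.125. Cells with over 100 FPKM were found in every group, and the ranges overlapped. The level of an average cell was far below that of Icam1 in each HEC group.

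Vcam1 was the second member that was called higher in homeostatic HEC than in BEC, a call that was lost with a pseudocount of 10 (0.86) and as the log2 ratio of mean FPKM (0.99). Homeostatic HEC averaged 2.69 ± 2.68 (SD, n = 79) and BEC 0.63 ± 1.83 (SD, n = 32), a difference of 2.06 on the log2 scale, set against the 17% of genes that were higher by 1 or more. An FPKM of 1 or more was found in 47 of 79 homeostatic HEC, 59.5%, and in 2 of 32 BEC, 6.25% (interval 0.766% to 20.8%). The arithmetic mean was 31.6 FPKM in homeostatic HEC and 15.9 FPKM in BEC, and the BEC mean rested on 1 cell: without BEC 17, at 433.2 FPKM, it was 2.45 FPKM. That cell had none of the 11 fibroblastic reticular markers above 0, a list that matters here because stromal cells of the node are known to carry Vcam1. It had 394.6 FPKM of Icam2, 0.20 FPKM of Icam1 and 457.1 FPKM of Pecam1. The reticular markers summed to a median of 0 in every group, the highest sum was 1857, 0.44, 603.6 and 27.9 FPKM in inflamed, dedifferentiated and homeostatic HEC and in BEC, and no cell carried 3 of them at 10 FPKM or more. The highest sum, 1857 FPKM, belonged to inflamed cell 26, in which only 1 such marker reached 10 FPKM or more. That cell was also 1 of the 6 inflamed HEC with 100 FPKM or more of Vcam1 (182.0). Among those 6, cells 35 and 62 had pericyte marker sums of 352.0 and 132.1 FPKM. The part of such cells in the level of Vcam1 was not tested. Of the 11 reticular markers, 5 were listed at 0 in all homeostatic HEC, namely Pdgfra, Cxcl13, Col1a1, Lum and Tnfsf11. The others were above 0 in some homeostatic HEC, and 1 reached 1 FPKM in more than 10% of them.

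In dedifferentiated HEC fewer cells had Vcam1 at the limits of 1 and 10 FPKM, but not at any FPKM above 0 or at 100 FPKM. An FPKM of 1 or more was found in 13 of 44 dedifferentiated HEC, 29.5% (interval 16.8% to 45.2%), and in 47 of 79 homeostatic HEC, 59.5% (interval 47.9% to 70.4%). Those intervals cover counting error over cells only. Any Vcam1 above 0 was found in 75% of dedifferentiated and 74.7% of homeostatic HEC. The log2 mean was 1.86 ± 2.86 (SD, n = 44) in dedifferentiated and 2.69 ± 2.68 (SD, n = 79) in homeostatic HEC, a difference of -0.83. It was -1.004 without dedifferentiated cell 11, which crosses the limit, and -0.34 after scaling by median ratios. Mean FPKM went the other way, at 44.4 in dedifferentiated and 31.6 in homeostatic HEC, and was 31.1 in dedifferentiated HEC without cell 11. The cells that did have Vcam1 were not low: 6 of 44 dedifferentiated and 9 of 79 homeostatic HEC had 100 FPKM or more. Pairing on the number of genes brought the difference to -0.29. Inflamed HEC averaged 2.54 ± 2.68 (SD, n = 64), a difference of -0.15 from homeostatic HEC, with 34 of 64 cells at 1 FPKM or more.

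MAdCAM-1, the ligand of alpha4beta7, was the member that set inflamed HEC apart. Madcam1 ran from 0 to 2872 FPKM in inflamed HEC with a median of 0.33, and from 0 to 0.59 FPKM in dedifferentiated HEC with a median of 0. It ran from 0 to 110.7 FPKM in homeostatic HEC and from 0 to 0.98 FPKM in BEC, with a median of 0 in both. The groups overlapped, since 26 of 64 inflamed HEC had none. An FPKM of 1 or more was found in 18 of 64 inflamed HEC, 28.1% (interval 17.6% to 40.8%), and in 5 of 79 homeostatic HEC, 6.33% (interval 2.09% to 14.2%). It was found in 0 of 44 dedifferentiated HEC (interval 0% to 8.04%) and in 0 of 32 BEC (interval 0% to 10.9%).

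Inflamed HEC averaged 1.54 ± 2.97 (SD, n = 64) for Madcam1 and homeostatic HEC 0.32 ± 1.21 (SD, n = 79), a difference of 1.22 on the log2 scale. Of 9525 genes, 5.48% were higher in inflamed HEC by 1 or more, and 96.7% had a smaller difference than Madcam1. The difference was between 1.06 and 1.3 when each cell was left out in turn, 0.94 over odd-numbered cells and 0.65 with a pseudocount of 10. Mean FPKM was 124.3 in inflamed and 3.08 in homeostatic HEC, 40.4 times as high, and 80.7 in inflamed HEC without cell 54. The mean of homeostatic HEC was 1.70 FPKM without cell 62. In dedifferentiated HEC and in BEC no cell reached 1 FPKM. The dedifferentiated minus homeostatic difference was -0.29 and the homeostatic HEC minus BEC difference 0.21, and Madcam1 did not pass the filter on low values in either comparison.

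Most of the Madcam1 of inflamed HEC came from 6 cells. Cell 54 had 2872 FPKM, cell 4 had 1975, cell 29 had 976.5, cell 33 had 843.7, cell 28 had 831 and cell 11 had 358.3. The next highest had 26.8 FPKM, so no cell lay between 26.8 and 358.3. Only 0.38% of the 2634 genes of like mean in inflamed HEC had a larger SD. All 6 cells also had the LFA-1 ligands, with Icam1 between 162.5 FPKM in cell 54 and 457.3 in cell 28, and Icam2 between 110.7 FPKM in cell 4 and 873.4 in cell 33. Their Vcam1 was 29.9 FPKM in cell 54, 10.01 in cell 29, 6.23 in cell 33, 2.21 in cell 11 and 0 in cells 4 and 28, around the inflamed median of 2.12. None of the 6 carried the markers of a non-endothelial type, and 5 of them had no reticular marker at 10 FPKM or more, while cell 4 had 1. In homeostatic HEC the 3 highest cells were cell 62 with 110.7 FPKM of Madcam1 and 0.64 of Icam1, cell 55 with 85.7 and 77.4, and cell 26 with 40.3 and 26.9. Nkx2-3, a homeobox gene known to be needed for Madcam1 in mouse mucosal endothelium, was listed at 0 in all 219 cells. So were 7527 of the 24049 genes, and whether these libraries could detect Nkx2-3 was not tested.

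**Figure D3:**
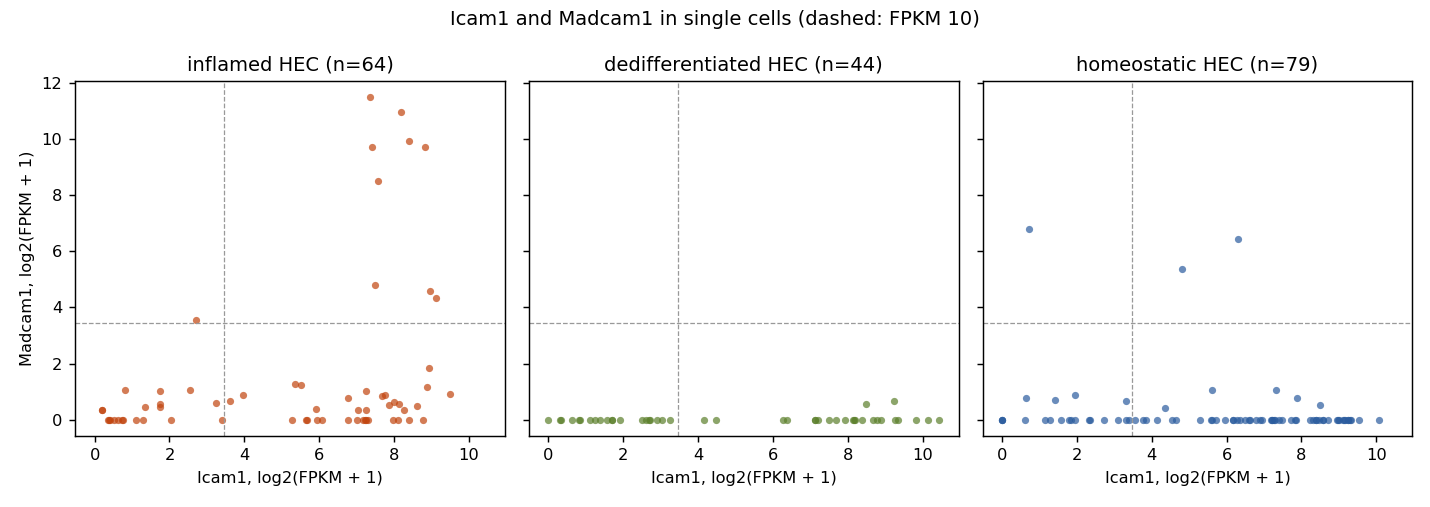
Madcam1 against Icam1, both as log2(FPKM + 1), with 1 point for each cell of the inflamed, dedifferentiated and homeostatic HEC and dashed lines at an FPKM of 10. Of the 10 inflamed HEC above the line for Madcam1, 9 are also above the line for Icam1, and no dedifferentiated HEC lies above the line for Madcam1.

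PECAM-1, the junctional molecule, was found in every cell. Pecam1 ran from 107.8 to 2045 FPKM in inflamed HEC with a median of 562.9, and from 154.4 to 3081 FPKM in dedifferentiated HEC with a median of 1313. It ran from 72.9 to 2177 FPKM in homeostatic HEC with a median of 703.3. In BEC it ran from 12.1 to 2060 FPKM with a median of 518.2. The ranges overlapped, and dedifferentiated HEC had the highest median. The SD over cells was between 0.89 and 1.05 on the log2 scale in the HEC groups and 1.98 in BEC. Such a spread was not unusual for the level. Of the genes of like mean, 76.8% in inflamed, 62.5% in dedifferentiated and 50.8% in homeostatic HEC had a larger SD, and 54.2% in BEC.

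Dedifferentiated HEC averaged 10.10 ± 1.001 (SD, n = 44) for Pecam1 and homeostatic HEC 9.29 ± 1.05 (SD, n = 79), a difference of 0.82 on the log2 scale, under the limit of 1 for a call. Of 9008 genes, 0.833% were higher in dedifferentiated HEC by 1 or more, 9.52% were lower, and the median over all of them was -0.30, so Pecam1 lay 1.11 above that median and 98.4% of genes had a smaller difference. Scaling by median ratios brought the difference to 1.89, past the limit, and pairing on the number of genes to 0.73. Inflamed HEC averaged 9.21 ± 0.89 (SD, n = 64), a difference of -0.08 from homeostatic HEC. Against the 9.29 of homeostatic HEC, BEC averaged 8.62 ± 1.98 (SD, n = 32), so that homeostatic HEC minus BEC was 0.67, and its sign turned to -0.17 with median ratios. Under 100 FPKM lay 2 of 79 homeostatic HEC and 3 of 32 BEC. The difference between dedifferentiated HEC and BEC was 1.48 on the log2 scale, in a comparison where 11.3% of genes were higher and 9.45% lower by 1 or more.

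**Figure D4:**
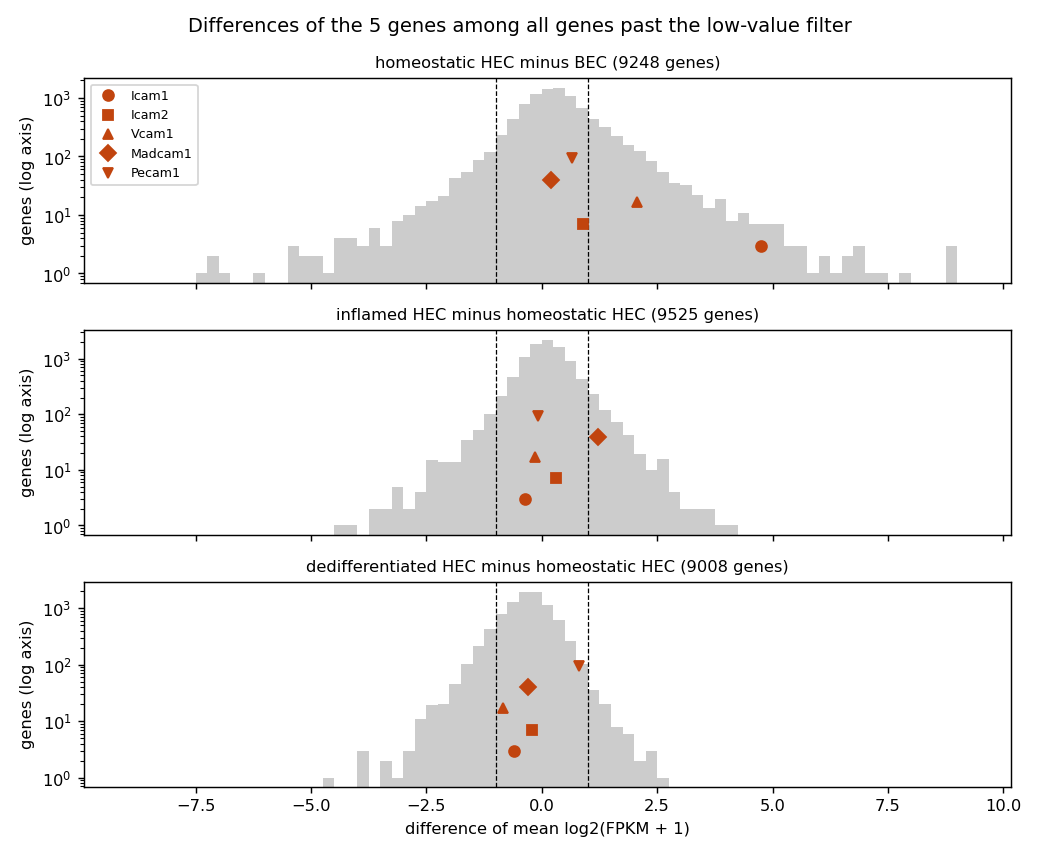
Differences of mean log2(FPKM + 1) for the 5 genes (coloured symbols, whose height has no meaning) over grey histograms of all genes past the filter on low values, with dashed lines at -1 and 1. Icam1 stands at 4.75 for homeostatic HEC minus BEC, Madcam1 at 1.22 for inflamed minus homeostatic HEC and Pecam1 at 0.82 for dedifferentiated minus homeostatic HEC, and Madcam1 did not pass the filter in the first and the last panel.

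On the log2 scale the order of the mean levels was the same in all 3 HEC groups, with Pecam1 highest, then Icam2, Icam1, Vcam1 and Madcam1. By mean FPKM, Madcam1 (124.3) lay above Vcam1 (30.9) in inflamed HEC. Icam2 and Icam1 differed by less than their SD in each HEC group, so their order is not separated by the spread over cells. In BEC Icam1, Vcam1 and Madcam1 all lay under a log2 mean of 1, with SDs of 1.56, 1.83 and 0.25, and their order is not separated either. Across groups Icam1 was ordered homeostatic, inflamed and dedifferentiated HEC and then BEC, of which only the step to BEC was larger than the SD of the lower group. Icam2 was ordered inflamed, homeostatic and dedifferentiated HEC and then BEC, Vcam1 homeostatic, inflamed and dedifferentiated HEC and then BEC, and Pecam1 dedifferentiated, homeostatic and inflamed HEC and then BEC, with every step smaller than the SD of the lower group. Madcam1 was ordered inflamed and homeostatic HEC, then BEC and dedifferentiated HEC, and its first step of 1.22 was about as large as the SD of homeostatic HEC, 1.21. The call against BEC was also made in both treated groups, with Icam1 4.39 higher in inflamed HEC (21.8% of genes higher and 3.87% lower by 1 or more) and 4.16 higher in dedifferentiated HEC. Vcam1 was 1.91 higher in inflamed and 1.23 higher in dedifferentiated HEC than in BEC. Icam2 was 1.21 higher in inflamed HEC than in BEC and 0.68 in dedifferentiated HEC on the log2 scale, while its mean FPKM was 0.908 and 0.795 times that of BEC, so its direction turned with the average. These comparisons share the BEC with the one on homeostatic HEC. Between inflamed and homeostatic HEC the small differences of the remaining ligands turned with the cells used: over odd-numbered and even-numbered cells they were 0.16 and -0.90 for Icam1, -0.28 and 0.94 for Icam2, and 0.32 and -0.65 for Vcam1.

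A typical HEC had several of the genes at once, and a typical BEC had Pecam1 with or without Icam2. At an FPKM of 1 or more the most frequent set was Icam1, Icam2, Vcam1 and Pecam1 in inflamed (28.1%) and homeostatic HEC (46.8%), Icam1, Icam2 and Pecam1 in dedifferentiated HEC (54.5%) and Icam2 with Pecam1 in BEC (56.3%). At an FPKM of 10 or more the most frequent set in HEC was Icam1 with Icam2 and Pecam1, in 15 of 64 inflamed (23.4%), 11 of 44 dedifferentiated (25%) and 27 of 79 homeostatic HEC (34.2%), and in 2 of 32 BEC (6.25%). Pecam1 alone was found in 6 inflamed (9.38%), 7 dedifferentiated (15.9%) and 4 homeostatic HEC (5.06%), and in 15 BEC (46.9%). Icam2 with Pecam1 was found in 9 inflamed, 10 dedifferentiated and 13 homeostatic HEC, and in 12 BEC. The set with Vcam1 added to Icam1, Icam2 and Pecam1 was found in 11 inflamed, 5 dedifferentiated and 17 homeostatic HEC, and in 0 of 32 BEC (interval 0% to 10.9%). The set of Icam1, Icam2, Madcam1 and Pecam1 was seen in 7 inflamed HEC (10.9%, interval 4.51% to 21.2%) and in no cell of another group. All 5 genes at that level were found in 2 inflamed and 2 homeostatic HEC.

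**Figure D5:**
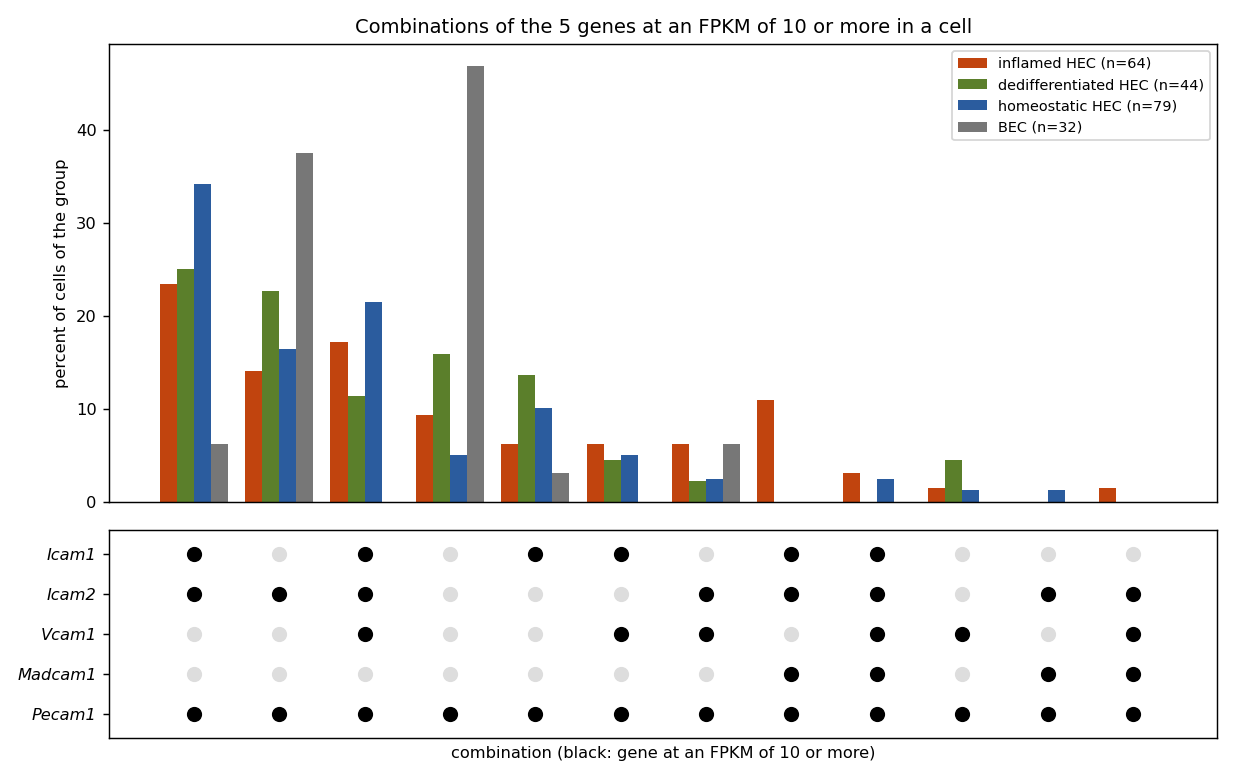
Share of the cells of each group, in percent, with each combination of the 5 genes at an FPKM of 10 or more, with the combination shown by black dots under the bars. Pecam1 alone is the most frequent combination in BEC (46.9%) and Icam1 with Icam2 and Pecam1 in the 3 HEC groups (23.4%, 25% and 34.2%).

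How often members were found together was set beside the product of their separate shares. Icam1 and Vcam1 were both at 10 FPKM or more in 26.6% of inflamed, 15.9% of dedifferentiated and 29.1% of homeostatic HEC, where the product of the shares was 24.1%, 12.4% and 24.2%. Icam1 and Icam2, which bind the same integrin, were both at that level in 54.7%, 36.4% and 58.2%, against products of 51.4%, 33.5% and 57.6%. Over the 10 pairs of members, Spearman's rho between cells ran from -0.25 to 0.40 in inflamed HEC, from -0.13 to 0.25 in dedifferentiated HEC, from -0.20 to 0.17 in homeostatic HEC and from -0.13 to 0.24 in BEC. The 0.40 was that of Icam1 and Madcam1 in 64 inflamed HEC, and the same pair had -0.20 in 79 homeostatic HEC. In sparse values such weak coefficients are descriptions of these libraries. Cells of a group differ in depth, and the labels do not say which of them shared a capture. Holding the number of genes fixed moved none of the coefficients by more than 0.103. In inflamed HEC, Icam1 was at 1 FPKM or more in 17 of 18 cells with Madcam1 at that level and in 37 of 46 cells without. At 10 FPKM or more, Icam1 was found in 9 of 10 inflamed HEC with Madcam1 and in 34 of 54 without, and Icam2 in 100% and 72.2% of the same cells. In homeostatic HEC, Icam1 was found at 10 FPKM or more in 23 of 26 cells with Vcam1 and in 35 of 53 without. At 1 FPKM or more the order turned, with Icam1 in 43 of 47 cells with Vcam1 and in 30 of 32 without. The rho of this pair was -0.05 in homeostatic HEC. These were not tested.

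Pecam1 made up most of the summed FPKM of the 5 genes. It was the highest of them in 44 of 64 inflamed, 39 of 44 dedifferentiated and 63 of 79 homeostatic HEC, and in 26 of 32 BEC. Its median share of the sum was 56.8%, 76.2% and 64.5% in inflamed, dedifferentiated and homeostatic HEC, against 85.9% in BEC. Icam2 was the highest in 11 inflamed, 3 dedifferentiated and 7 homeostatic HEC and in 6 BEC, Icam1 in 4, 1 and 9 HEC and in 0 BEC, and Madcam1 in 4 inflamed HEC. The 4 integrin ligands together had a median of 434.9, 467.0 and 379.4 FPKM in inflamed, dedifferentiated and homeostatic HEC and of 69.03 FPKM in BEC.

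The genes whose levels over cells were most like those of a member were ranked among 3095 genes by the mean of the rho in 64 inflamed, 44 dedifferentiated and 79 homeostatic HEC, and every mean was weak. For Icam1 they were Cfb (0.30), Kdelc2 (0.28), Nfkbia (0.27), Bace2 (0.26) and Plekho2 (0.26), for Icam2 Itgb4 (0.29), AU021092 (0.29), Praf2 (0.28), Erp29 (0.27) and Rnasek (0.26). For Vcam1 they were Uqcr11 (0.31), Mterfd1 (0.31), Arhgdib (0.31), Timm13 (0.30) and Pdhb (0.30). Arhgdib is also a listed pan-leukocyte marker, and its rho with Vcam1 was 0.22, 0.53 and 0.17 in inflamed, dedifferentiated and homeostatic HEC. For Madcam1 they were Cyp2e1 (0.25), Hsbp1 (0.24), Pnisr (0.24), Rbm39 (0.23) and Phax (0.23). Madcam1 was above 0 in only 2 of 44 dedifferentiated HEC, at 0.59 FPKM or less, and in 12 of 79 homeostatic HEC. Its ranking therefore rests on few cells in those groups. For Pecam1 they were Cav1 (0.29), Fabp5 (0.28), Pls3 (0.28), Lman1 (0.27) and Enpp2 (0.27). Between members and the selectin Selp the largest coefficient was 0.71 with Icam1 in 32 BEC. There Selp did not exceed 1.35 FPKM and Icam1 had a median of 0.39 FPKM, so most values rested on a few fragments.

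The partners of these molecules were followed through lists of related genes. Of 13 other immunoglobulin-family surface proteins past the filter, 2 were higher and 2 lower in homeostatic HEC than in BEC, beside 17% and 4.4% of all genes, with a list median of -0.22 beside 0.28 for all genes. The share that was higher is close to that of all genes. Those called were the nectins Pvrl2 (2.45) and Pvrl1 (1.44), and Mcam (-1.86) and the junctional Jam2 (-1.33). In inflamed against homeostatic HEC 3 of 14 were higher, Mcam (3.58), the integrin-associated Cd47 (1.99) and Cd200 (1.13), and 2 were lower, Jam3 (-2.78) and Cd300lg (-1.75), with a list median of 0.69 beside 0.10 and with 5.48% and 2.6% of all genes higher and lower. In dedifferentiated against homeostatic HEC 0 of 13 were higher and 2 were lower, Jam3 (-1.99) and Pvrl1 (-1.13), with a list median of 0.08 beside -0.30 and with 0.833% and 9.52% of all genes higher and lower. Mcam had a median of 81.9 FPKM in inflamed and 0.5 FPKM in homeostatic HEC. Jam3 had a median of 1.75 FPKM in inflamed, 5.46 in dedifferentiated and 91.4 in homeostatic HEC. Icam4 and Icam5, the other measured ICAM genes, reached 1 FPKM in at most 1 cell of any group.

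The selectins, which slow lymphocytes before integrins act, were called higher in inflamed HEC, where Icam1 and Vcam1 were not. Selp was 3.86 and Sele 1.75 higher in inflamed than in homeostatic HEC, beside -0.36 for Icam1 and -0.15 for Vcam1. That gap between genes was not tested. Selp was at 1 FPKM or more in 64 of 64 inflamed and 46 of 79 homeostatic HEC. The list of selectins and other entry molecules had 4 of 10 genes higher and 1 lower in homeostatic HEC against BEC, 3 higher and 2 lower in inflamed against homeostatic HEC, and 0 higher and 1 lower in dedifferentiated against homeostatic HEC. Over all genes the shares higher and lower were 17% and 4.4%, 5.48% and 2.6%, and 0.833% and 9.52% in those comparisons. The list medians were 0.67, -0.00 and 0.31, beside 0.28, 0.10 and -0.30 for all genes.

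Of 13 membrane anchors and tetraspanins, the proteins that cluster ICAM-1 and VCAM-1 in docking structures, 5 were higher and 3 lower in homeostatic HEC than in BEC, beside 17% and 4.4% of all genes. The higher ones were the tetraspanins Cd63 (6.03), Cd151 (1.59) and Cd9 (1.5) with Actn1 (2.53) and Cttn (1.04), and the lower ones were Actn4 (-1.90), Cd81 (-1.59) and Rdx (-1.24). In inflamed against homeostatic HEC Msn, which links these molecules to actin, was 1.01 higher and Cd63 was at -1.09, beside 5.48% and 2.6% of all genes. In dedifferentiated against homeostatic HEC Cttn was at -1.11 and Cd151 at -1.06, beside 9.52% of all genes lower. The list medians were 0.60, 0.56 and -0.19, beside 0.28, 0.10 and -0.30 for all genes.

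The list of transcription factors and inducing receptors had 7 of 17 genes higher and 1 lower in homeostatic HEC than in BEC, beside the 17% and 4.4% of all genes. Among the higher ones were the interleukin-1 receptor Il1r1 (2.50), the NF-kappaB inhibitors Nfkbia (2.32) and Tnfaip3 (2.16), the noncanonical subunits Nfkb2 (2.17) and Relb (2.12) and the tumour necrosis factor receptor Tnfrsf1a (1.66), and the lower one was Klf4 (-1.14). In inflamed against homeostatic HEC the lymphotoxin receptor Ltbr (1.88) and Tnfrsf1a (1.29) were higher, and Nfkbia (-1.21) and Tnfaip3 (-1.18) were lower, beside 5.48% and 2.6% of all genes. In dedifferentiated against homeostatic HEC Tnfrsf1a (1.43) was higher and Tnfaip3 (-1.88), Nfkb2 (-1.73) and Irf1 (-1.09) were lower, beside 0.833% and 9.52% of all genes. Nfkbia had a median of 291.1 FPKM in inflamed, 467.9 in dedifferentiated and 585.7 in homeostatic HEC, against 250.6 in BEC. The list medians were 0.22, -0.04 and -0.58, beside 0.28, 0.10 and -0.30 for all genes.

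Among 4 shedding proteases past the filter, which cut such molecules from the surface, 0 were called in homeostatic HEC against BEC and in dedifferentiated against homeostatic HEC, and Adam15 (1.59) and Adam9 (1.41) were higher in inflamed than in homeostatic HEC. The shares of all genes that were higher were 17%, 0.833% and 5.48% in those comparisons. Adam17 was at 1 FPKM or more in 30 of 64 inflamed and 39 of 79 homeostatic HEC. Of the integrin counter-receptors, Itgb1 was 1.39 higher in homeostatic HEC than in BEC. Itga4, the alpha chain of VLA-4 and of alpha4beta7, was at 1 FPKM or more in 17 of 64 inflamed, 1 of 44 dedifferentiated and 18 of 79 homeostatic HEC and in 13 of 32 BEC. The subunits that are largely limited to leukocytes were seldom seen, with Itgal at 1 FPKM or more in 2 inflamed HEC, Itgb2 in 1 homeostatic HEC and Itgb7 in 1 dedifferentiated HEC. Pan-leukocyte markers had a summed median of 35.3, 36.6 and 139.6 FPKM in inflamed, dedifferentiated and homeostatic HEC and of 1.83 FPKM in BEC, so they were higher in HEC than in BEC, as Icam1 and Vcam1 were, and their part in those results was not tested beyond leaving cells out. At 10 FPKM or more, 3 markers of a non-endothelial type were found together in 3 inflamed, 2 dedifferentiated and 8 homeostatic HEC and in 1 BEC. Without those cells the homeostatic HEC minus BEC difference was 4.80 for Icam1 and 2.02 for Vcam1, and the inflamed minus homeostatic difference of Madcam1 was 1.28.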

How the data were processed

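Single-cell libraries of 220 endothelial cells were made after Fluidigm C1 capture with Nextera XT, per the labels' protocols. The authors deposited 1 table of FPKM values for 24049 gene symbols. CASAVA 1.8, RSEM 1.2.18 and mm10 were used, per the submitters' processing notes, while the sources used here do not say what each was used for, which annotation served or how doublets and poor cells were treated. No cell was removed here and no doublet caller was run. FPKM are not counts, so no count test was used. Values were taken as log2(FPKM + 1), a step made here on the deposited FPKM with a pseudocount of 1 and no scaling between cells. Groups follow the title and the labels for cell type, condition and treatment. Each group is 1 sample, so only means, SDs over cells, differences of means and shares of cells with exact Clopper-Pearson 95% intervals are given. Intervals cover counting error only, because reads amplified with no molecular identifier do not stand for separate molecules. Counts over all genes cover those that reached an FPKM of 1 in more than 10% of the cells of either group.

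Depth was approximated from the steps between low FPKM values of 2179 single-transcript genes with GENCODE M21 (GRCm38) lengths, and the 10th to 90th percentiles over cells were 1479846 to 2855590 fragments in inflamed, 1483028 to 2782414 in dedifferentiated and 1229932 to 3493232 in homeostatic HEC, and 1700666 to 2895346 in BEC. The 2 near-identical inflamed cells were averaged as FPKM, a step set after they were seen. The members, 6 lists of related genes and 11 marker lists were chosen with earlier results of these data known, and 1 listed symbol had no match in the table. Of the listed genes that were called, 1 is not reported here. Besides members and listed genes, the text names for each member the 5 genes most like it, by the mean Spearman rho over the 3 HEC groups among genes that reached an FPKM of 1 in at least 30% of the cells of each, leaving out predicted, clone, ribosomal protein, haemoglobin and small RNA genes and genes whose rho was not above 0 in every group. The scripts were tested on simulated data. Alternatives were other pseudocounts, scalings, averages, filters and sets of cells. Python 3.11.15, pandas 2.3.3, numpy 2.4.6, scipy 1.17.1 and matplotlib 3.10.9 were used.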

Additional observations from a re-analysis of the deposited data

How the results depend on the processing

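No paired analysis was possible because each group is 1 sample, no test was run and the numbers in the titles only name cells. Of 170 recomputed differences, leave-one-out values included, 153 kept their call and moved by less than the spread over cells, 17 did not, and 0 called differences changed sign. That spread is wide. Icam1 for homeostatic HEC minus BEC was 6.14 and 2.75 with pseudocounts of 0.1 and 10, and both count among the 153. Differences that were not called could change sign and still count, as Pecam1 did for homeostatic HEC minus BEC (-0.17 with median ratios). For homeostatic HEC minus BEC, Icam2 was 1.12 with a pseudocount of 0.1, 1.34 in pairs matched on the number of genes and 1.19 over odd-numbered cells. Vcam1 was 0.86 with a pseudocount of 10 and 0.99 as the log2 ratio of mean FPKM, Madcam1 was 4.95 as that ratio and Pecam1 was 1.07 over even-numbered cells. For inflamed minus homeostatic HEC, Madcam1 was 0.65 with a pseudocount of 10, 5.34 as the log2 ratio of mean FPKM and 0.94 over odd-numbered cells. For dedifferentiated minus homeostatic HEC, Vcam1 was -1.24 with a pseudocount of 0.1 and -1.27 over even-numbered cells, Madcam1 was -7.00 as the log2 ratio of mean FPKM, and Pecam1 was 1.89 with median ratios and 1.01 over even-numbered cells. The cause was not tested. Leaving out each cell in turn, an alternative chosen after seeing the data, gave 0.73 to 1.08 for Icam2 (homeostatic HEC minus BEC) and -1.004 to -0.76 for Vcam1 (dedifferentiated minus homeostatic HEC), and kept the calls of Icam1 (4.70 to 4.92) and Vcam1 (1.99 to 2.32) against BEC and of Madcam1 in inflamed HEC (1.06 to 1.3).

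Shares depend on the limit, and 30 of 78 moved out of the interval at an FPKM of 1. At any FPKM above 0, Icam1 was found in 100% of inflamed HEC, 97.7% of dedifferentiated HEC and 81.3% of BEC, and Icam2 in 100% of dedifferentiated HEC and 93.8% of BEC. Vcam1 was found in 79.7%, 75% and 74.7% of inflamed, dedifferentiated and homeostatic HEC and 56.3% of BEC, Madcam1 in 59.4% of inflamed and 15.2% of homeostatic HEC and 18.8% of BEC, and Icam1 with Vcam1 in 79.7%, 72.7% and 72.2% of the HEC groups and 53.1% of BEC. At an FPKM of 10 or more, Icam1 was found in 67.2%, 54.5% and 73.4% of the HEC groups, Icam2 in 76.6%, 61.4% and 78.5% of them and 50% of BEC, Vcam1 in 35.9% of inflamed and 32.9% of homeostatic HEC, Madcam1 in 15.6% of inflamed HEC, and Icam1 with Vcam1 in 26.6%, 15.9% and 29.1% of the HEC groups and 0% of BEC. No gene under the filter on low values differed by 1 or more, so the counts over all genes were the same without it. The 40 correlations moved by at most 0.103 with the number of genes held fixed, and some near 0 turned sign. A second scaling shifts the median of all genes: it was 0.28, 0.10 and -0.30 for homeostatic HEC minus BEC, inflamed minus homeostatic and dedifferentiated minus homeostatic HEC, and 0.07, 0.07 and 0.02 with median ratios. Values under 1 FPKM rest on a few fragments, so a cell listed near 0 is not shown to lack the transcript.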
